A study of Mus musculus with 4 samples.

Results

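The plasma protein genes of the hepatocyte were examined as a list of 44 named mouse genes, among the 21000 protein-coding genes with a curated start in RefSeq (GRCm38.p6, the build known as mm10). A cytosine was assigned to one of these genes where it lay in the RefSeq gene body or within 3000 bp of either end and had a deposited value in all 4 mice. The rule found 614 such cytosines in 501 CpGs, out of 1276684 cytosines common to all mice, and 18 of them belonged to a pair of listed genes at once. At least 1 cytosine was found for 39 genes and none for the other 5, which were Serpind1, Cfi, Hpx, Hp and Apoh.

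Enhanced reduced representation bisulfite sequencing (ERRBS) reads short fragments cut out by restriction enzymes, so it covers regions rich in CpGs best. The labels name MspI, which cuts at CCGG, for these libraries, and the general account of the method in the study also names TaqαI, whose sites were not counted here. It was carried out on total livers of 4 male mice aged 6 to 8 weeks, and each mouse gave 1 library. Mixed-1 and Mixed-2 were on an undefined background that included C57BL/6J along with other strains, and B6-1 and B6-2 were Black-6 (C57BL/6). The sources name no mutation and no treatment for either group, and the approvals for animal work came from a different institution for each. Summed over CpG cytosines, the coverage of a library was between 60654199 and 99215153, where a read over several CpGs counts at each of them. The mean coverage was 44.2 and 49.0 in the mixed mice and 63.7 and 60.1 in the B6 mice. Strain, institution and depth therefore cannot be told apart. Over the cytosines of the plasma protein genes the median coverage was 52 reads, with single values between 10 and 192.

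Hepatocytes make most proteins of the blood plasma, among them albumin, the clotting factors, the complement components and the apolipoproteins of lipoprotein particles. Most of these genes are known to be highly active in adult liver, but Afp, which is also listed, is the fetal counterpart of Alb. In mammalian DNA most CpGs away from CpG-dense starts carry 5-methylcytosine, while CpG-dense starts of genes are usually free of it. Many genes that are active in one tissue only have few CpGs at their starts, and low methylation around such starts often goes along with activity. Bisulfite sequencing cannot tell 5-methylcytosine from 5-hydroxymethylcytosine. In bulk liver an intermediate level may come from a mixture of cell types, of cells or of alleles, and these cannot be told apart here. Only DNA methylation was analysed, so the tissue label was not checked against RNA markers.

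The starts of the plasma protein genes were sparsely covered. The start window, which was taken as 1000 bp on each side of a curated transcription start site (TSS), held a common cytosine in 14 of the 44 genes (31.8%), beside 68.8% of all protein-coding genes, and in 9 genes when it was narrowed to 500 bp. The median start window of the 44 genes held 22 CpGs and 2 CCGG sites, compared with 71 CpGs and 7 CCGG sites over all genes. No CCGG lay in the window of 5 listed genes (Ttr, Serpinc1, Serpind1, F5 and C6), or 11.4%, beside 11.6% of all protein-coding genes. Among genes with under 2 CpGs per 100 bp these shares were 13.2% and 32.7%. Of the 38 listed genes with under 2 CpGs per 100 bp in the window, 10 were covered (26.3%), beside 21.7% of the 7386 protein-coding genes of that kind. Without a covered site near the TSS were the carrier genes Alb, Afp, Ttr, Ahsg, Hpx and Hp, and the protease inhibitor and anticoagulant genes Serpinc1, Serpind1, Serpinf2 and Proc. The same was true of Fga, Fgg, F5, F11, Plg and Kng1 in coagulation and fibrinolysis, and of C3, C6, C8a, C9, Cfi and Vtn in the complement group, which here included vitronectin. It also held for Itih2, Itih3 and Itih4, and for Apoa1, Apoa5, Apob, Apoc3 and Apoh. For these 30 genes no value common to all mice describes the start, and where they had sites, the values given are from the gene body or the flanks.

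Promoter sequences of RefSeq (GRCm38.p6, from 250 bases before to 50 bases after a start) were found for 36 of the 44 genes, with 42 promoters in all. Their median was 4.5 CpGs, beside 7 over 32851 promoters. The letters CCGG, which read the same on both strands, were present in 18 of the 42 (42.9%) and in 52.8% of all promoters, and the letters TATAAA on either strand in 11 (26.2%) and in 13.6%. A match of these letters describes the window and does not show a site in use. The promoters of 6 listed genes show how little of such a region ERRBS could read. They are printed 5′ to 3′ on the strand of the gene, in lower case, with the CpGs measured in all 4 mice in capitals. F7 lies at chr8:13025784-13026083 on the plus strand, Fgb at chr3:83049814-83050113 on the minus strand, Ambp at chr4:63154123-63154422 on the minus strand, Itih1 at chr14:30943240-30943539 on the minus strand and Alb at chr5:90460620-90460919 on the plus strand. Rbp4, at chr19:38124762-38125061 on the minus strand, is shown as the CpG-dense contrast.
F7: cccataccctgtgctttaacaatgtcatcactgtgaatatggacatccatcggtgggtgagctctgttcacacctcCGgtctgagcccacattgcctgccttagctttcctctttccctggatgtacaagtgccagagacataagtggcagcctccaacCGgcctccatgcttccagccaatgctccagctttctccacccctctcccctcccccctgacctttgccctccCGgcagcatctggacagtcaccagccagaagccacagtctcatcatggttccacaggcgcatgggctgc
Fgb: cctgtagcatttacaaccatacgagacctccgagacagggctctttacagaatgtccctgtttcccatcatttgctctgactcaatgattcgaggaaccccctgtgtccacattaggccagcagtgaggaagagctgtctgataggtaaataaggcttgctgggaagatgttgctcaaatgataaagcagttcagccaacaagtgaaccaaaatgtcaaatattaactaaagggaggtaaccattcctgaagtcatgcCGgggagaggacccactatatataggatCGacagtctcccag
Ambp: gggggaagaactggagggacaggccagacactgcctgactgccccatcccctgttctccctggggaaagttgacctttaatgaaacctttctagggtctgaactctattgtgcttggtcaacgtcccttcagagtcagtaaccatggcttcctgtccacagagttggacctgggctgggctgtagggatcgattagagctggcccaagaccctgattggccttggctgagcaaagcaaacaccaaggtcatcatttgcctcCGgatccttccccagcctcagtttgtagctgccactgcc
Itih1: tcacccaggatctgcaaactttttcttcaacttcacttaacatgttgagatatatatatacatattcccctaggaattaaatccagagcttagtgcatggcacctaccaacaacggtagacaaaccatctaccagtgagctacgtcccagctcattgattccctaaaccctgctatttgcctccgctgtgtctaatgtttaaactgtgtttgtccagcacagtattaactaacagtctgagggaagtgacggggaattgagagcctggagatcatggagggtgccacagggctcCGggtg
Alb: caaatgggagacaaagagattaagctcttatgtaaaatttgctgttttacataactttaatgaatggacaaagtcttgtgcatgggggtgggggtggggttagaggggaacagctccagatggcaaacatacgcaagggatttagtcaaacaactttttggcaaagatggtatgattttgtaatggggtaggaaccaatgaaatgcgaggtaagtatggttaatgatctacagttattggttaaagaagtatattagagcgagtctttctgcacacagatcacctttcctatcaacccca
Rbp4: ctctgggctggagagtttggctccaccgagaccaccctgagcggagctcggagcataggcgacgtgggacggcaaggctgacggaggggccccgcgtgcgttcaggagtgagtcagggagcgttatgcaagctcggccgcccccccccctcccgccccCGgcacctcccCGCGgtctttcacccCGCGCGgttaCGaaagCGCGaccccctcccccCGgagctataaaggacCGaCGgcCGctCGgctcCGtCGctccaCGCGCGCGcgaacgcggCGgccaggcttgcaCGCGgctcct
In the promoter of F7, 3 of 5 CpGs were measured, in that of Fgb 2 of 5, in that of Ambp 1 of 3 and in that of Itih1 1 of 5. The Alb promoter held 3 CpGs and no CCGG, and none of its CpGs was measured. The Rbp4 promoter held 40 CpGs, of which 23 were measured, and the 32 cytosines read there had a mean of 0.163%.

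Across the 14 covered start windows the median of the gene means was 16.4%, beside 0.366% over all 14457 covered protein-coding genes. It depended on the depth and number of cytosines asked for, with 10.7% at a coverage of at least 20 reads and 4.32% over the genes with at least 5 start cytosines. The level varied with CpG density. The 4 covered genes with at least 2 CpGs per 100 bp had a median of 0.446%, beside 0.266% over all such genes. The 10 covered genes below that density had a median of 21.8%, beside 54.5% over the 1604 covered genes of that kind. With at least 5 start cytosines asked for, only Apoa2, F7, Ambp and Fgb remained of the listed CpG-poor genes. The medians of CpG-poor starts were then 16.4% for these and 25.9% over all such genes, so the gap was smaller. By gene, the start mean and the number of CpGs per 100 bp had a Spearman correlation of -0.798 over the 14 genes, given as a description. A mean below 20% was found at 9 of the 14 starts, beside 88.4% over all covered genes, and a mean above 80% at 0, beside 4.62%. Among the CpG-poor genes a mean below 20% was found at 5 of 10 starts, beside 33.7% over all covered genes of that kind. The plot of start windows by mouse shows each gene.

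**Figure D1:**
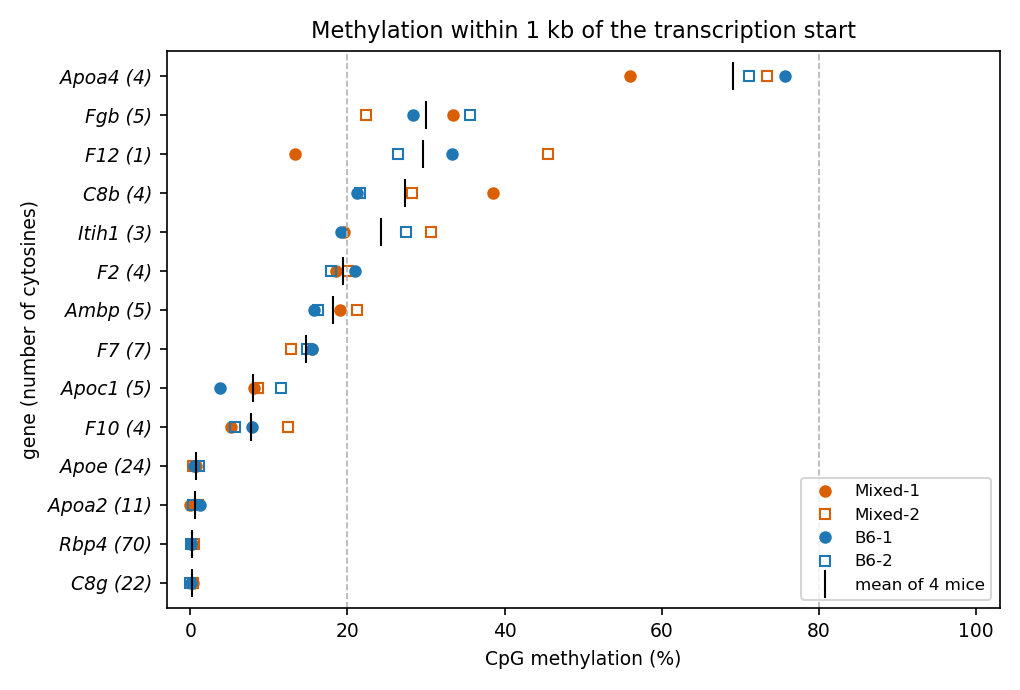
CpG methylation (%, x axis) within 1000 bp of the TSS of the 14 plasma protein genes with a covered site, with the number of cytosines in brackets; each symbol is 1 mouse (orange mixed, blue B6) and the black bar is the mean of the 4 mice. Dashed lines mark 20% and 80%. The means run from 0.213% at C8g to 69.0% at Apoa4, and none lies above 80%.

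In the coagulation group 5 starts were covered and all were partly methylated. F7 encodes factor VII, which starts the extrinsic pathway together with tissue factor, and its gene lies at chr8:13025506-13035809 on the plus strand. Its start window was methylated at 15.5% and 12.8% in the mixed mice and 15.5% and 14.9% in the B6 mice (mean 14.7% ± 1.28, SD, n = 4 mice; 7 cytosines between 174 bp upstream and 253 bp downstream). The values of the strains overlapped, and single cytosines had means between 6.62% and 22.4%. F10, which encodes factor X and follows F7 on the same strand (chr8:13037308-13056676), had the lowest start of the group. Its 4 cytosines, from 540 to 636 bp downstream, gave 5.16% and 12.4% in the mixed mice and 7.79% and 5.65% in the B6 mice (7.75% ± 3.31). F2, which encodes prothrombin (chr2:91612397-91636457, minus strand), gave 18.6% and 20.1% in the mixed mice and 21.0% and 17.95% in the B6 mice over 4 cytosines between 879 and 901 bp downstream (19.4% ± 1.39). All 3 genes encode zymogens that depend on vitamin K.

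Fgb encodes the beta chain of fibrinogen, the precursor of fibrin (chr3:83042246-83049863, minus strand). Its 5 cytosines lay between 8 and 182 bp downstream, in exonic sequence, and gave 33.5% and 22.3% in the mixed mice and 28.4% and 35.6% in the B6 mice (29.95% ± 5.93). This gene was thinly read in Mixed-2, where its cytosines had between 10 and 14 reads. F12, which encodes factor XII of the contact pathway, had a single start cytosine at 654 bp downstream. It was methylated in 4 of 30 and 5 of 11 reads in the mixed mice and in 16 of 48 and 14 of 53 in the B6 mice (29.6% ± 13.4). The exact (Clopper-Pearson) 95% intervals ran from 3.76% to 30.7% in Mixed-1 and from 16.7% to 76.6% in Mixed-2. These intervals overlapped, and a difference between single mice was not tested. Such intervals cover counting error only, since amplified reads are not independent molecules.

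The carrier and inhibitor genes split by CpG density. Rbp4, which encodes the retinol carrier of plasma (chr19:38116620-38125321, minus strand), had 70 start cytosines, more than any other listed gene, and its 4 mice gave 0.250% and 0.407% in the mixed mice and 0.142% and 0.129% in the B6 mice. All 70 had a mean of at most 3.10%. Ambp encodes the precursor of alpha-1-microglobulin and bikunin, the light chain of inter-alpha-trypsin inhibitor (chr4:63143275-63154172, minus strand). It had 20 CpGs in the window, beside 106 at Rbp4, and its 5 exonic cytosines between 11 and 229 bp gave 19.1% and 21.2% in the mixed mice and 15.8% and 16.3% in the B6 mice (18.1% ± 2.54). Both mixed mice were above both B6 mice. Itih1, a heavy chain gene of the same inhibitor (chr14:30929180-30943289, minus strand), gave 19.6%, 30.7%, 19.2% and 27.5% over 3 cytosines between 44 and 184 bp (24.2% ± 5.75).

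In the complement group, the start of C8g and that of C8b differed in the same way. The genes encode the gamma and beta chains of C8, a part of the membrane attack complex. C8g (chr2:25498650-25501777, minus strand) had 81 CpGs in its windows, and its 22 cytosines gave 0.369% and 0.332% in the mixed mice and 0.127% and 0.0246% in the B6 mice. All 22 lay within 1000 bp of a start of its neighbour Fbxw5. C8b (chr4:104766317-104804548, plus strand) had 23 CpGs, and its 4 intronic cytosines between 903 and 980 bp gave 38.5% and 28.2% in the mixed mice and 21.2% and 21.6% in the B6 mice (27.4% ± 8.10).

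Apolipoprotein starts covered the whole range. Apoe, whose product clears remnant lipoproteins (chr7:19696244-19701310, minus strand), gave 0.741% and 0.327% in the mixed mice and 0.474% and 1.10% in the B6 mice, over 24 cytosines (0.661% ± 0.340). Apoa2, a major protein of high density lipoprotein, had 11 cytosines with a mean of 0.651% ± 0.562. In Mixed-1 no read was methylated at a start coverage of 336 summed over these cytosines. This would allow a share of up to 0.893% if each count were a separate read. Neighbouring cytosines shared reads, so fewer reads lie behind this sum and the limit is higher. All 11 also lay within 1000 bp of a start of Tomm40l. Apoc1, the neighbour of Apoe, gave 8.05%, 8.58%, 3.74% and 11.6% over 5 exonic cytosines between 678 and 771 bp downstream (7.98% ± 3.23).

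The start of Apoa4 had the highest methylation of the list. Apoa4 encodes an apolipoprotein that the mouse liver makes along with the intestine, and it lies with Apoa1, Apoc3 and Apoa5 on chromosome 9 (chr9:46240844-46243458, plus strand). Its 4 cytosines between 258 and 358 bp downstream gave 55.9% and 73.4% in the mixed mice and 75.7% and 71.1% in the B6 mice (69.0% ± 8.94). Mixed-1 was the lowest and the other 3 mice lay close together. The cytosine at 258 bp gave 43.1% of 58 reads and 77.4% of 84 in the mixed mice, and 88.3% of 77 and 86.6% of 82 in the B6 mice. The stretch printed here is the start of the coding sequence with its following intron bases, at chr9:46241154-46241212 on the plus strand, with 2 of the 4 measured CpGs in capitals, whose cytosines had means of 76.8% and 49.0%.
Apoa4: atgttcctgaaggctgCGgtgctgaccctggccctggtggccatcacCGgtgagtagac

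Gene bodies, which were taken as the RefSeq gene beyond 1000 bp of any start, held 242 cytosines in 26 of the 44 genes. The median of the gene means was 60.2% (quartiles 26.8% and 79.9%), beside 80.1% (59.2% and 89.8%) over the 13411 covered protein-coding genes. A body mean below 50% was found in 11 of the 26 genes (42.3%), beside 20.2% over all genes. With at least 5 body cytosines, 16 genes remained, with a median of 64.4% beside 77.9%, and 5 of them (31.3%) were below 50%, beside 22.2%. Single cytosines were more often at intermediate levels. A mean between 20% and 80% was found for 119 of the 242 body cytosines (49.2%), beside 21.8% over all genes, and a mean above 80% for 94 (38.8%), beside 47.2%. A mean below 20% was found for 29 (11.98%), beside 31.02%. Averaged over cytosines, the listed bodies had 59.1%, beside 56.7% over all genes. By cytosine the listed bodies were thus not lower, unlike by the median of the gene means. The cytosines came in 100 groups more than 300 bp apart over the 39 genes and their flanks, with a median of 2 groups a gene, so that neighbours often came from the same reads. The 146 exonic cytosines had a mean of 57.6% (± 0.638, SD of the 4 mice) and the 96 intronic ones of 61.4% (± 1.501), higher in introns in 4 of 4 mice. The median of the gene means went the other way, with 71.6% over 16 genes in exons and 63.4% over 24 genes in introns.

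**Figure D2:**
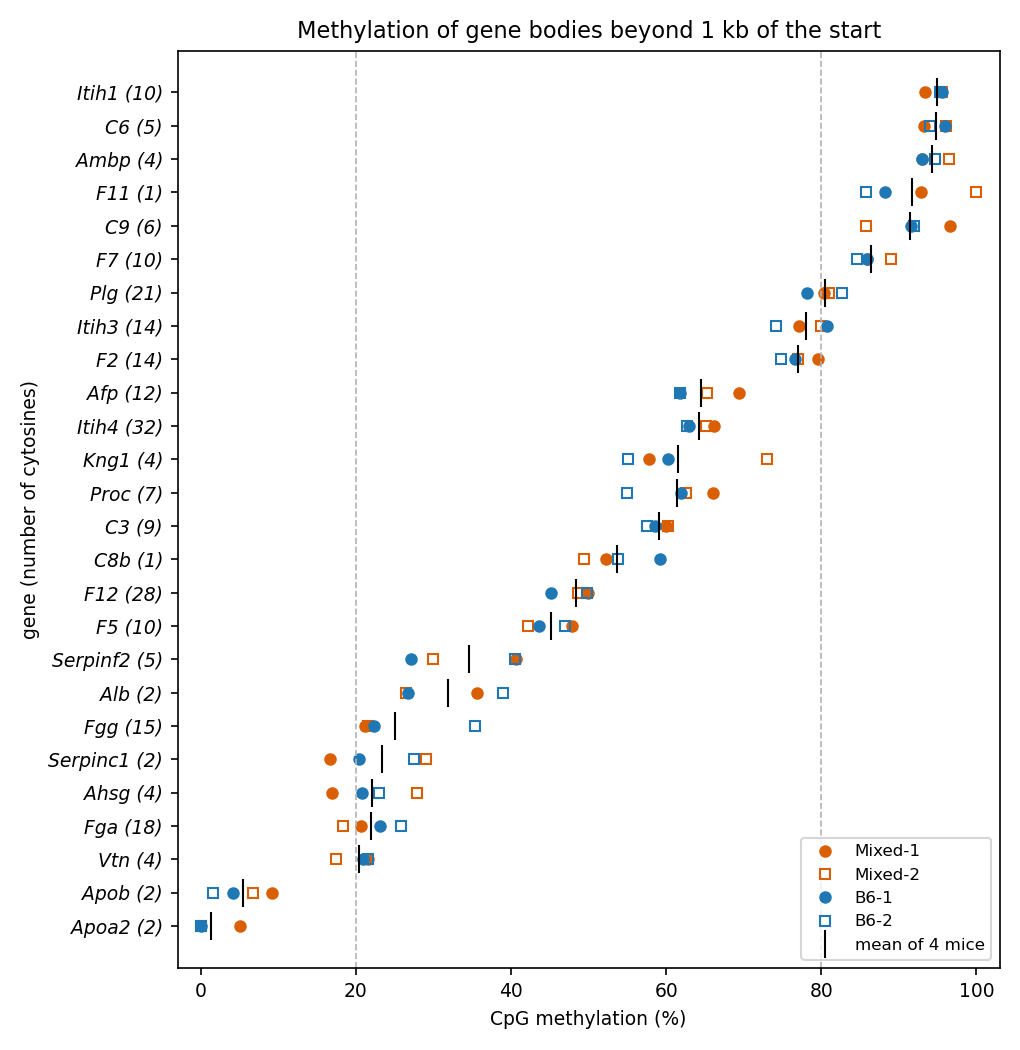
CpG methylation (%, x axis) of gene bodies beyond 1000 bp of a TSS in the 26 plasma protein genes with a covered site, with the number of cytosines in brackets; each symbol is 1 mouse (orange mixed, blue B6) and the black bar is the mean of the 4 mice. The genes range from 1.25% at Apoa2 to 94.9% at Itih1, and 11 of them lie below 50%.

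The 3 lowest bodies among the genes with at least 5 cytosines were Fga, Fgg and Serpinf2. Fga and Fgg encode the alpha and gamma chains of fibrinogen and lie beside Fgb on chromosome 3 (chr3:83026153-83033627 and chr3:83007724-83015056, both on the plus strand). Over its 18 cytosines Fga gave 20.6% and 18.3% in the mixed mice and 23.1% and 25.7% in the B6 mice (22.0% ± 3.20). Of these, 6 exonic cytosines between 5111 and 5181 bp had a mean of 27.3%, and 11 exonic cytosines between 6715 and 6932 bp had a mean of 15.3%. One intronic cytosine at 4309 bp stood higher, at 62.9%. Over 15 cytosines between 4955 and 5263 bp Fgg gave 21.1%, 21.5%, 22.3% and 35.4% (25.1% ± 6.88), with B6-2 above the other 3 mice. The 4 cytosines at the far end, between 5218 and 5263 bp, gave 8.94% and 12.3% in the mixed mice and 23.8% and 35.2% in the B6 mice. Single cytosines of Fgg had means between 18.2% and 29.9%, and 4 cytosines downstream of the gene, between 10112 and 10249 bp from the start, had a mean of 62.5% ± 5.68. With the start of Fgb, each of the 3 fibrinogen genes held cytosines in this range. The coding stretch of Fgg is shown because 11 of its 12 CpGs were measured and none of its cytosines had a mean above 29.9%, although single mice differed along it. It lies at chr3:83012804-83012997 on the plus strand, and the measured CpGs are in capitals.
Fgg: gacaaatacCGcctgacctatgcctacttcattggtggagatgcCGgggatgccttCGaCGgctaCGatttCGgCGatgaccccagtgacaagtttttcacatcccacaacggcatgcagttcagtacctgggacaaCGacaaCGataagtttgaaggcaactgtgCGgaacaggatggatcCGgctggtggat

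Serpinf2 encodes alpha-2-antiplasmin, the main inhibitor of plasmin (chr11:75431736-75439501, minus strand). Its 5 body cytosines gave 40.7%, 29.9%, 27.1% and 40.5% (34.5% ± 7.05). Within the gene, 3 exonic cytosines between 1059 and 1108 bp had a mean of 15.0%, and 2 intronic cytosines at 3273 and 3346 bp had a mean of 63.9%. The other bodies below 50% were those of F12 and F5, described with their stretches, and 6 that rested on 2 to 4 cytosines each. Serpinc1, which encodes antithrombin, had 2 cytosines with a mean of 23.3% ± 5.86. Ahsg, which encodes fetuin-A, had 4 with 22.1% ± 4.597, all of them within 1000 bp of a start of Gm30505. Alb had 2 intronic cytosines at 4659 and 4716 bp, which gave 35.6%, 26.4%, 26.7% and 38.9% by mouse (31.9% ± 6.33) at between 31 and 61 reads. These 2 were the only values for the albumin gene and say nothing about its start. Afp, the fetal counterpart next to Alb on chromosome 5, had 12 cytosines between 14166 and 14357 bp with a mean of 64.5% ± 3.65.

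Vtn, which encodes vitronectin, had 4 exonic cytosines at 20.4% ± 1.96, and Apob, the main protein of very low density lipoprotein, had 2 at 5.39% ± 3.30 between 1089 and 1223 bp. Upstream of Apob, 4 cytosines between 2430 and 2466 bp from the start had a mean of 81.2% ± 1.52. Apoa2 had 2 body cytosines at 1.25%. At a summed coverage of 46, 40 and 37, Mixed-2, B6-1 and B6-2 had no methylated read. Separate reads would allow up to 6.52%, 7.50% and 8.11%, and the limits are higher where a read covered both cytosines. Both Apoa2 body cytosines also lay within 1000 bp of a start of Tomm40l.

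F5 and F12 were mixed along their length. F5 encodes factor V, the cofactor of factor X (chr1:164151835-164220277, plus strand). Its 10 body cytosines gave 47.8% and 42.2% in the mixed mice and 43.6% and 46.9% in the B6 mice (45.2% ± 2.67). Of these, 5 intronic cytosines between 7448 and 7502 bp had a mean of 25.01% ± 2.23, the next one at 7608 bp a mean of 91.9%, and 2 at 10758 and 10834 bp a mean of 26.3%. Further in, 2 cytosines at 43864 and 43905 bp had a mean of 90.9% ± 3.45. Low and high cytosines thus alternated along F5. The body of F12 (chr13:55417958-55426804, minus strand) had a mean of 48.4% ± 2.20 over 28 cytosines. It had 18 exonic cytosines between 5437 and 5561 bp at 53.7% ± 3.34. Its last 4 exonic cytosines, between 8546 and 8622 bp, had a mean of 0.500% ± 0.445, and no curated start of another gene lay within 1000 bp of them.

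The 3 highest bodies with at least 5 cytosines were Itih1, C6 and C9. All 10 body cytosines of Itih1 were above 80%, with 93.4%, 95.6%, 95.6% and 95.2% by mouse (94.9% ± 1.06). C6 and C9, which encode terminal complement proteins, had 5 and 6 cytosines with means of 94.8% ± 1.41 and 91.4% ± 4.43. Ambp had 4 intronic cytosines between 8003 and 8044 bp at 94.3% ± 1.64, and F11, which encodes factor XI, had 1 at 91.7% ± 6.27. Plg, the gene of plasminogen, had 13 cytosines between 40041 and 40313 bp with a mean of 90.5% ± 1.33, and 2 intronic cytosines at 25964 and 26034 bp with a mean of 22.1% ± 7.47. The body mean of Plg was 80.5% ± 1.85, beside 80.1% as the median over all genes.

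The remaining bodies lay in between. F2 had a mean of 77.0% ± 1.97, Itih3 of 78.01% ± 3.02, Itih4 of 64.2% ± 1.72, Kng1 of 61.5% ± 7.95, Proc of 61.3% ± 4.62 and C3, the central complement component, of 59.0% ± 1.26. The inter-alpha-trypsin inhibitor genes Itih1, Itih3 and Itih4 lie next to each other on chromosome 14, and all 3 of their bodies were above 50%. Of the 9 coagulation and fibrinolysis genes with body sites, 4 were below 50%. Both apolipoprotein bodies were below 6%, but they rested on 2 cytosines each, those of Apoa2 near the start of Tomm40l.

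Methylation was higher further from the start. In the 7 genes with sites in both regions (F2, F7, F12, C8b, Itih1, Apoa2 and Ambp) the body exceeded the start by 47.8 and 42.4 percentage points in the mixed mice and by 46.9 and 46.8 in the B6 mice (mean 46.0 ± 2.44, SD, n = 4). The difference was positive in 4 of 4 mice and larger than the spread between them. A two-sided exact sign test gave p = 0.125, which is the smallest value that 4 mice allow. The largest differences were in Ambp (76.2 points), F7 (71.7) and Itih1 (70.7). In Apoa2 both regions were near 0, and the body was the lower of them in 3 of 4 mice. In C8b the body value was a single cytosine at 1008 bp (53.6%), just beyond the start window. The start value of F12 was also a single cytosine. In F7 the level went from 14.7% at the start over 70.2% ± 3.49 at 2 exonic cytosines at 2689 and 2742 bp to 90.4% ± 2.70 at 8 cytosines between 5350 and 8975 bp, and was 7.75% at the start of F10. In F2 the low level reached further, with 26.1% at cytosines 1047 and 3046 bp downstream and 85.5% ± 3.08 at 12 cytosines from 7961 bp on.

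Itih4 showed the same step without a covered start. Its 9 cytosines between 1213 and 1405 bp had means between 24.6% and 29.9% (28.2% ± 6.09), and they gave 31.7% and 34.8% in the mixed mice and 21.8% and 24.3% in the B6 mice. The next 7, between 4182 and 4276 bp, had a mean of 92.2% ± 1.63. The lower stretch is shown because all 7 of its CpGs were measured. It spans an intron and the exon after it at chr14:30887679-30887891 on the plus strand, with the measured CpGs in capitals.
Itih4: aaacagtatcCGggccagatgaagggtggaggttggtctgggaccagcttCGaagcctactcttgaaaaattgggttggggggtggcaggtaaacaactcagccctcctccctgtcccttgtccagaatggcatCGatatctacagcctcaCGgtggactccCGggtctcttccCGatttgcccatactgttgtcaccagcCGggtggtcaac

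**Figure D3:**
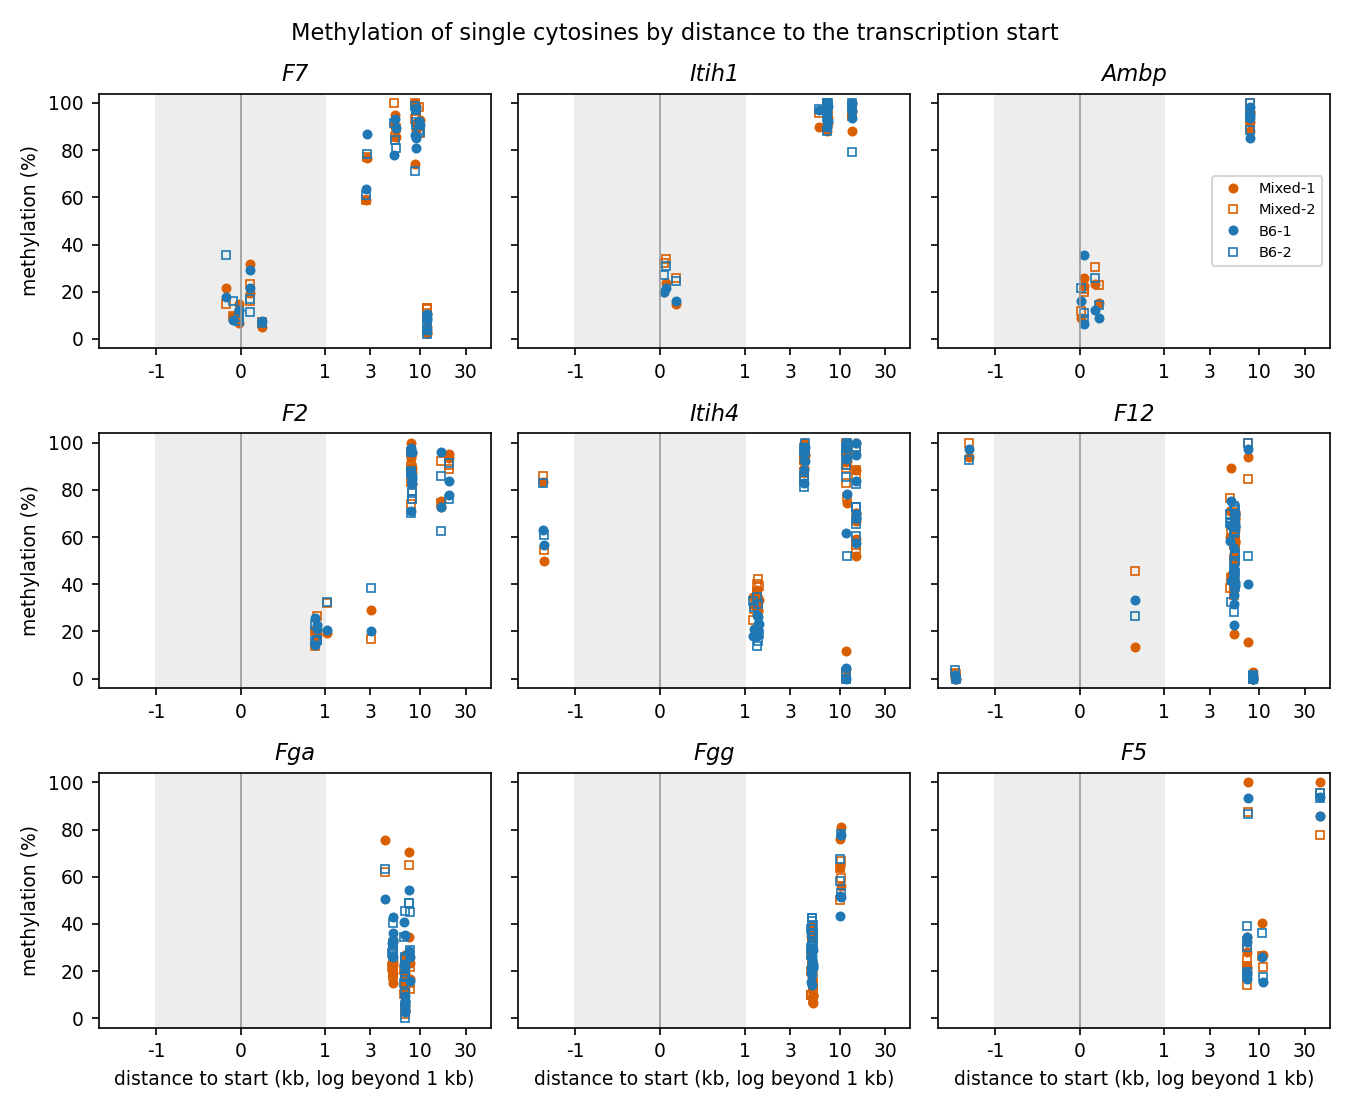
Methylation (%, y axis) of every covered cytosine in 9 plasma protein genes by its distance to the nearest TSS (x axis, kb, linear to 1 kb and logarithmic beyond); each symbol is 1 cytosine in 1 mouse (orange mixed, blue B6) and the grey band is the start window. F7, Itih1, Ambp, F2 and Itih4 go from below 50% near the start to above 60% in most of the body, while Fga and Fgg stay mostly below 50% at 5 kb. The low points of F7 beyond 10 kb belong to the start of F10.

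Over the CpG-poor plasma protein genes as a list, the median gene mean was 21.2% up to 500 bp downstream of the start (6 genes), 19.4% from 501 to 1000 bp (5 genes) and 26.2% from 1001 to 3000 bp (9 genes). It was 63.9% from 3001 to 10000 bp (13 genes) and 81.8% beyond that (12 genes). Over all CpG-poor protein-coding genes the same medians were 34.0%, 75.4%, 76.2%, 81.2% and 83.2%. The gap between these medians was thus widest between 501 and 3000 bp and small beyond 10000 bp. Averaged over cytosines, the listed genes had 21.5%, 17.7%, 34.3%, 54.3% and 76.0% at these distances. All CpG-poor genes had 27.9%, 53.1%, 42.1%, 57.7% and 66.6%. By cytosine the gap was thus wide only from 501 to 1000 bp, and the listed genes were the higher ones beyond 10000 bp. Different genes entered each distance, and the comparison describes these few genes without a test.

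**Figure D4:**
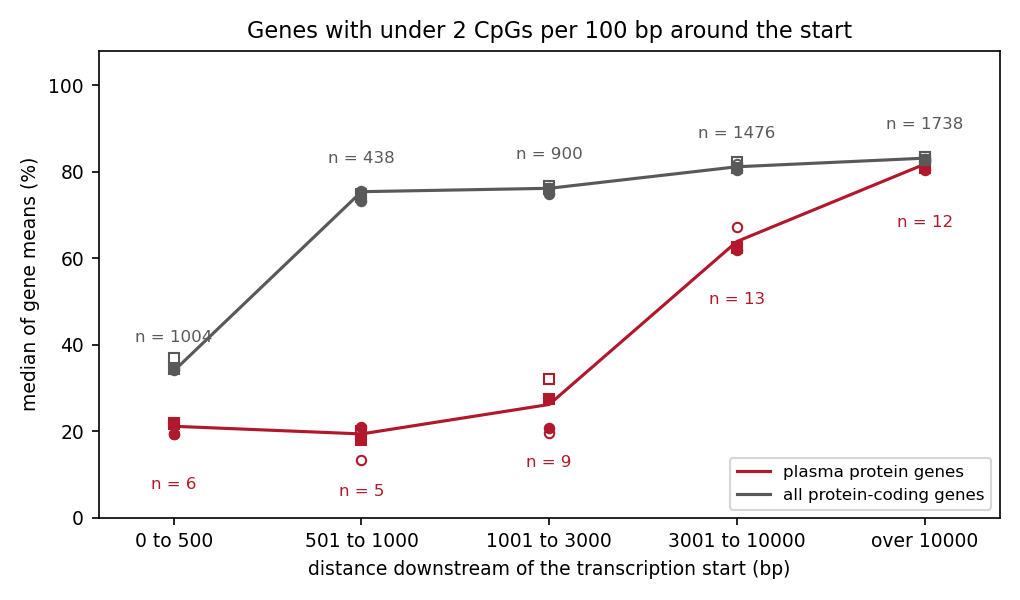
Median of the gene means (%, y axis) by distance downstream of the TSS (bp, x axis) for genes with under 2 CpGs per 100 bp in the start window; lines are medians of the means of the 4 mice, symbols are the medians of single mice (open mixed, filled B6) and n is the number of genes. CpG-poor plasma protein genes (red) stay below 35% up to 3000 bp in every mouse, while all such genes (grey) are at 34.0% to 37.0% up to 500 bp and above 70% from 501 bp on, and both exceed 80% beyond 10000 bp.

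Many flanking cytosines lay at neighbouring genes. Of the 614 cytosines, 155 lay within 1000 bp of a start of another gene, among them 64 upstream of Vtn at the start of Sarm1 and 48 downstream of Apoa5 at the start of Zpr1. The 48 had a mean of 0.158% and the 64 of 10.2%. The 7 cytosines between Apoa1 and Apoc3, which the rule counted for both genes, had a mean of 23.4% ± 1.69 and gave 23.7%, 20.9%, 24.9% and 24.0% by mouse. Upstream of C3, 6 cytosines between 1793 and 2526 bp from the start had a mean of 18.9% ± 5.10. Between F7 and F10, 2 cytosines at 1406 and 1480 bp upstream of F10 had a mean of 91.0% ± 2.02, close to the 5 exonic cytosines at the end of F7. Upstream of Apoe, 5 cytosines between 2337 and 2410 bp from the nearest curated start had a mean of 7.42% ± 2.67. They lie at positions 19701525 to 19701598, just beyond the 5′ end of the RefSeq gene at 19701310. Another 3, between 3780 and 3871 bp from that start, had a mean of 81.6% ± 2.18.

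Other gene groups were taken as comparison lists. Of 59 other liver plasma protein genes, 19 had a covered start (32.2%), with a median of 20.5%, and 9 of the 19 were below 20% and 0 above 80%. The 9 were Masp1, Pros1, Trf, Pltp, Serping1, Saa1, C2, Saa2 and Apoc2, with start means of 0%, 0.142%, 0.354%, 2.87%, 7.90%, 7.94%, 10.99%, 17.7% and 18.9% in that order. Masp1 rested on 2 cytosines with a summed coverage of 20 in Mixed-1 and 101 in B6-1. There, 0 methylated reads allow up to 15.0% and 2.97% if all reads are separate, and more if the cytosines share reads. Their body median was 65.7% over 32 genes, and 9 of these (28.1%) were below 50%. Of 99 cytochrome P450 genes, 27 starts were covered, with a median of 1.99%, 19 below 20% and 5 above 80%, and their body median was 82.6%. Since 15 of those 27 starts were CpG-dense, the CpG-poor starts were also compared, and their medians were 27.1% over 12 P450 genes (4 of them above 80%) and 20.7% over 13 other plasma protein genes, beside 21.8% over the 10 listed genes. A last list was taken by symbol alone (Rpl or Rps and a digit, or Rplp), to collect genes of cytosolic ribosomal proteins. Such a match can also take in other genes whose symbols begin this way. Of its 100 genes, 92 starts were covered, with a median of 0.187%, and the body median was 78.2%.

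The strains differed little in these genes. Over all 614 cytosines the mean level was 35.1% and 34.6% in the mixed mice (34.8% ± 0.401, n = 2) and 33.7% and 35.1% in the B6 mice (34.4% ± 0.942, n = 2). The difference of 0.44 percentage points was smaller than the spread within the B6 mice (two-sided exact permutation test, p = 0.667, n = 2 against 2, whose smallest possible p is 0.333), and its sign turned when B6-1 was left out (-0.23 points) or reads were pooled over cytosines (-1.21 points). In a logistic model per cytosine with overdispersion moderated by limma, 0 of the 614 were called at 25 points or more with p under 0.01 after Benjamini-Hochberg adjustment, beside 0.00572% of all common cytosines (73 of 1276684). An unadjusted p under 0.05 was found for 20 of the 614 (3.26%), beside 2.03% of all. Fisher's exact test was also run on reads pooled by strain, so that mice of a strain count as 1 sample. It called 2 of the 614, in Serpinf2 and Apoa4, beside 1613 of the 1276684 common cytosines.

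**Figure D5:**
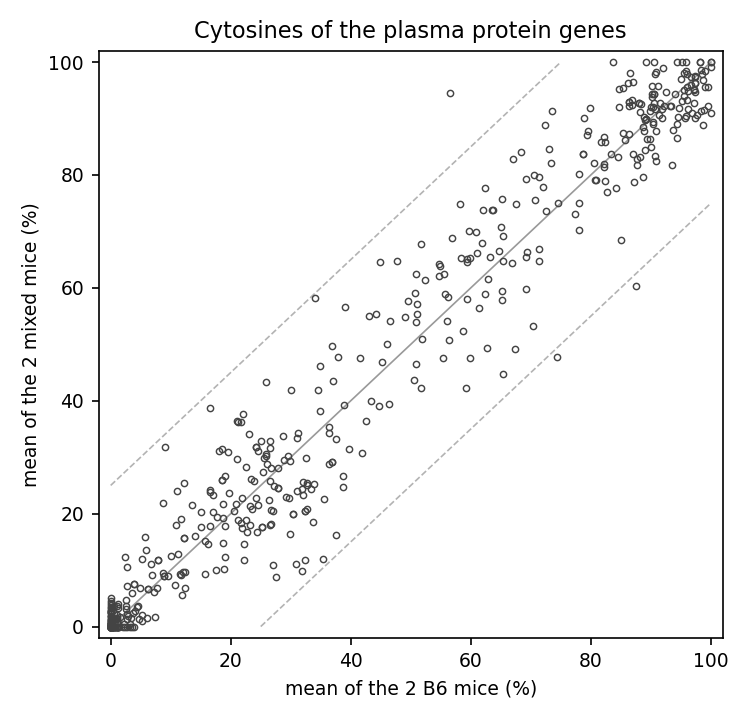
Mean methylation (%) of each cytosine of the plasma protein genes in the 2 mixed mice (y axis) against the 2 B6 mice (x axis); the solid line marks equality and the dashed lines differences of 25 points. 3 cytosines lie outside the dashed lines, 1 higher in the mixed mice and 2 lower.

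A difference of at least 25 points was found for 3 of the 614 cytosines (0.489%), beside 0.373% of all common cytosines. One lay just beyond the 3′ end of Serpinf2, at position 75431475 of chromosome 11. It was methylated in 21 of 23 and 42 of 43 reads in the mixed mice and in 31 of 55 and 30 of 53 in the B6 mice, or 91.3%, 97.7%, 56.4% and 56.6%. The mixed mice were both above the B6 mice and the exact 95% intervals did not overlap (72.0% to 98.9% at the lowest mixed mouse and 42.3% to 70.2% at the highest B6 mouse), but the adjusted p over all common cytosines was 0.348 by the limma-moderated model. The others were the Apoa4 cytosine at 258 bp, with a difference of -27.2 points (mixed minus B6) that came from Mixed-1, and a cytosine downstream of Vtn with a difference of -26.6 points, which had 11 and 10 reads in the mixed mice. Their adjusted p was 1 each by the same model.

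By gene, over its body, start and flanks, both mixed mice lay on the same side of both B6 mice in 13 of 31 genes with at least 5 cytosines (41.9%), 9 higher and 4 lower, beside 36.6% of 16056 protein-coding genes (22.2% higher and 14.4% lower). Of the 4 lower ones, Apoa1 and Apoc3 rested on the same 7 cytosines. The share was near that background. The 5 largest differences were in Proc, Afp, Fgg, Fga and Fgb. Proc, which encodes the anticoagulant protein C, gave 66.0% and 62.5% in the mixed mice and 61.9% and 54.95% in the B6 mice, a difference of 5.83 points. Afp gave 69.4% and 65.2% against 61.8% and 61.7%, a difference of 5.56 points. The fibrinogen genes were lower in the mixed mice, with differences (mixed minus B6) of -4.997 points in Fgg, -4.90 in Fga and -4.13 in Fgb. In Fga the groups did not overlap (23.5% and 20.2% against 24.6% and 28.9%), and in Fgg and Fgb they did. At each of the 4 Fgg cytosines between 5218 and 5263 bp, however, both mixed mice were below both B6 mice, with differences from -16.1 to -20.6 points and an unadjusted p between 0.00334 and 0.0177 by the limma-moderated model, and an adjusted p of 1 each. These 4 were singled out after their values were seen, and they lie close together on the same strand. No cytosine of these 5 genes was called in the model across all sites.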

How the data were processed

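ERRBS was performed on liver DNA of 4 mice, with 1 library for each mouse, 2 of mixed background and 2 C57BL/6. The libraries were sequenced as 50-cycle single reads. The methods of the study name BSMAP and mm10, while the submitters' processing notes name Bismark, SAMtools and mm10, so the sources differ on the aligner, and versions are not given in the sources used here. For each CpG cytosine and strand the authors deposited the coverage as a count of reads, with at least 10 in every file, and, as percent, how many of them read as C (methylated) or T. Incomplete conversion would raise all percentages and could not be measured in these files. The study reports a conversion rate for each library, and in all of them only a very small share stayed unconverted. The lowest levels given here, such as those at the starts of Rbp4 and C8g, lie near that share. Whether these lowest levels reflect methylation was not tested.

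Cytosines present in all 4 files were kept, and each of them fell on a CpG of GRCm38.p6. Methylated reads were obtained as the percentage of coverage, rounded to whole reads. Regions were set by the curated RefSeq transcripts (start window 1000 bp, flank 3000 bp). A gene value is the mean of its cytosines in a mouse. Strain was tested per cytosine over all common cytosines with a logistic model whose overdispersion was kept at 1 or above and moderated with limma 3.58.1 (R 4.3.3, data.table, version 1.17.8). A cytosine was called at an adjusted p under 0.01 and a difference of 25 points, and the model was tested on simulated data. Values by mouse were compared with exact tests, whose smallest p was 0.333 for 2 against 2 mice and 0.125 for 4 pairs. Tables and figures were made with Python 3.11.15, numpy 2.4.6, pandas 2.3.3, scipy 1.17.1 and matplotlib 3.10.9. Nothing in the sources says that mice of a strain came from separate litters, so the exact tests over mice measure the spread between these mice only. The p-values of the model per cytosine also rest on an overdispersion estimated across cytosines. Those of Fisher's exact test on pooled reads leave out the spread between mice.

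The 44 genes and the comparison lists were chosen with earlier results of these data known. The lists were other liver plasma protein genes, cytochrome P450 genes by symbol and genes with ribosomal protein symbols. Named with values were all genes by coverage of the start, the 3 lowest and 3 highest bodies with at least 5 cytosines, and the 5 largest strain differences. Other bodies, stretches within genes and printed sequences were chosen after their values were seen. Alternatives covered the coverage minimum, merged strands, window size, choice of start, neighbouring starts, pooled reads, the number of cytosines, the bounds, each mouse left out, the replicate number and the strain test. The counts of bodies below 50% and the median of CpG-poor starts, with their alternatives, were added after seeing the data.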

Additional observations from a re-analysis of the deposited data

Results flagged for a closer look

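Only 2 results were marked for a closer look, and both lie outside the common cytosines. In the start window of Apob, which had no cytosine common to all mice, the B6 mice had cytosines of their own. In B6-1 there were 6, with a mean methylation of 27.8% and 30 methylated of 112 reads (26.8%, exact 95% interval from 18.9% to 36.0%). In B6-2 there were 4, with a mean of 35.9% and 36 methylated of 91 reads (39.6%, interval from 29.5% to 50.4%). Both were above the limit that a count of 0 allows (2.68% and 3.30%), and the mixed mice had no cytosine with at least 10 reads there, so that the strains could not be compared. In none of the 7 genes with both regions did the difference between body and start have 1 sign in both mixed mice and the opposite sign in both B6 mice.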

How the results depend on the processing

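With a start window of 500 bp, 9 starts were covered, the median start mean was 14.7% and the median body mean 47.7% (over all genes 0.223% and 67.4%). With 2000 bp the start median was 18.1% (24.2% for CpG-poor genes), the body median 64.2%, and 7 bodies lay below 50%. At a coverage of at least 20 these medians were 10.7%, 18.5% and 65.4%. With at least 5 cytosines the start median was 4.32% (16.4% for CpG-poor genes), the body median 64.4%, and 5 bodies lay below 50%. Without cytosines near other starts the start median was 18.8% (24.2% for CpG-poor genes). Over all CpG-poor protein-coding genes the start median was 37.3% with 500 bp, where that of the listed genes was 21.2%, and 61.9% with 2000 bp. It was 47.2% at a coverage of at least 20, 25.9% with at least 5 cytosines and 57.3% without cytosines near other starts. The gap to the listed genes was thus smallest with at least 5 cytosines. Which genes remained changed with each of these settings. The body exceeded the start by between 39.4 and 71.7 points under all alternatives, in every mouse kept. The upper end came from asking for at least 5 cytosines in both regions, where F7 was the only gene left. The next largest value was 60.6 points, at a coverage of at least 20.

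Leaving out 1 mouse gave start medians from 16.1% to 16.6%, body medians from 58.2% to 61.5%, CpG-poor start medians from 20.6% to 22.4%, and no other count of starts or bodies. The strain difference ranged from -0.23 points (without B6-1) to 1.11 points (without B6-2), and was -1.21 points with reads pooled (exact permutation p = 0.333).

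No alternative of the limma-moderated model called a cytosine of these genes. With all 4 mice kept, an unadjusted p under 0.05 was found for between 16 and 21 of them. The share over all common cytosines was taken for the main fit only, at 2.03%, beside 3.26% here. Leaving out a mouse moved the calls over all common cytosines from 73 to 225 and 285 without Mixed-1 and Mixed-2, and to 0 without B6-1 or B6-2, so that 0 calls here say little about small differences. Fisher's exact test on reads added up by strain called 2 cytosines (adjusted p = 7.46e-06 in Serpinf2 and 0.000907 in Apoa4) and 1613 in all. The deviations of mice with the same replicate number did not go together (correlation -0.00457 over these cytosines), and with the number as a replicate block the strain difference was 0.44 points (1.39 and -0.51 by number, exact permutation p = 1) and 15 cytosines were called in all, with 1 residual degree of freedom.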

Other observations

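CpGs read on both strands gave a second value for the same position. Among the plasma protein genes 113 CpGs were read on both strands in all 4 mice, with a median absolute difference of 1.32 percentage points between strands, beside 0.383 points over 251994 such CpGs. In 3 of the 113 (2.65%) the strands differed by at least 50 points, beside 2.22% over all, and all 3 lay in a CCGG. At positions 30897968 and 30897969 of chromosome 14, in Itih4, the plus strand had a mean of 82.5% and the minus strand of 1.44%. At positions 30898016 and 30898017 the order was the other way round, with 4.70% on the plus strand and 95.4% on the minus strand. In Proc the plus strand had 68.7% and the minus strand 0% at between 16 and 26 reads. Each difference had the same direction in all 4 mice, and its cause was not tested.

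Of the 5 genes without a common cytosine, Cfi had 1 cytosine in B6-1 only and Apoh had 2 in Mixed-1 only. Serpind1, Hpx and Hp had none in any mouse, although 4, 8 and 12 CCGG sites lay in these genes and their flanks.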
